A study of Mus musculus with 18 samples.

Results

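Itga6, Smarca2, Trim66, Ankrd45 and Tsc22d3 are 5 mouse genes whose loci hold some of the strongest 2-deoxyglucose (2-DG) peaks that lie away from gene ends. They were selected on measured values, from 21900 protein-coding genes of the annotation: chosen by the presence and fold of a peak in the 2-DG lists over 2 kb from the ends of the gene, within the gene body or 60 kb on either side. Because peak presence and peak fold in these lists chose the genes, both are given as description, without a test. The data are chromatin immunoprecipitation with sequencing of ATF4 in primary immature neurons from E14 mouse embryos, 2 days in vitro. The 2-DG neurons received 10 mM 2-DG for 6 h and the control neurons were untreated, and no genotype, strain or sex is given in the labels used here. Of 18 samples, 10 immunoprecipitations have a peak list, of which 4 2-DG lists and 4 control lists have labels that name 1 treatment. The antibody label names the ATF4 antibody for the 2-DG samples and reads none for the control samples, whereas that antibody is given for the whole study in the design text, so an effect of 2-DG and a missing antibody in the controls cannot be told apart.

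ATF4 is a basic leucine zipper transcription factor of the integrated stress response, translated when the initiation factor eIF2 is phosphorylated. It pairs with other leucine zipper proteins, C/EBP factors among them, and is best known for binding near the promoters of genes for amino acid supply, transfer RNA charging and stress signalling. 2-DG resembles glucose, stalls glycolysis and, by interfering with N-linked glycosylation, stresses the endoplasmic reticulum, a known trigger of this response. Sites far from promoters can act as enhancers on genes at a distance, so the gene nearest to a site need not be the one it serves. In a bulk immunoprecipitation, more cells with a bound site and more binding per cell cannot be told apart.

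The 5 genes differ in function. Itga6 encodes the integrin alpha 6 subunit, part of a laminin receptor. Smarca2 encodes BRM, an ATPase of the SWI/SNF chromatin remodelling complex. Trim66 encodes a chromatin-binding protein of the TIF1 family. Tsc22d3 encodes the glucocorticoid-induced leucine zipper protein GILZ, an anti-inflammatory mediator of glucocorticoids. Ankrd45 encodes a protein with ankyrin repeats.

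Each locus held 1 region (peaks of the 8 lists joined where they overlap by at least 1 bp) that had a peak in 4 of 4 2-DG lists but in 0 of 4 control lists. Across the genome, 512 of 33228 regions over 2 kb from every protein-coding gene end had that pattern, a background of 1.54%. The reverse pattern, present in 4 control lists but absent from the 2-DG lists, was seen for 1 region (0.00301%). Of all 21900 genes, 694 (3.17%) had such a 2-DG region within the gene or 60 kb on either side. The rule used these calls, so the 5 of 5 genes with a region are read against neither background. Without 2-DG list 3, the most restrictive, the counts were 1059 regions and 1318 genes.

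The 5 sites stood near the head of the 512 regions. Ordered by within-list percentile of peak fold, averaged over the 4 2-DG lists, the sites of Itga6, Ankrd45, Smarca2, Trim66 and Tsc22d3 were at places 1, 3, 4, 5 and 6. The region at place 2 lay 195684 bp from the nearest gene end, that of Gask1b. The next regions after the 5 were at place 7, 559778 bp from the nearest end (Prelid2), and at place 8, 5614 bp from an end of Tlr4, the lipopolysaccharide receptor gene. Around the 2 kb limit itself, the 512 begin with a region 2012 bp from an end of Cd82 and one 2035 bp from an end of Rabepk, while regions 1918 bp from an end of Hhip and 1895 bp from an end of Ski fell within it. All 5 sites lay further out, 5393 bp to 70789 bp from the nearest end of any protein-coding gene.

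The nearest annotated starts of these genes help to place the sites, and the promoter windows of the pair of genes whose sites lie closest to one of their own starts, Tsc22d3 and Ankrd45, are shown here. They are RefSeq sequences on GRCm38.p6, the assembly that mm10 names, from 250 bases before to 50 after a start, and capitals mark the bases from the start on. The Tsc22d3 window is at chrX:140542619-140542918 on the minus strand and the Ankrd45 window at chr1:161142447-161142746 on the plus strand.
Tsc22d3: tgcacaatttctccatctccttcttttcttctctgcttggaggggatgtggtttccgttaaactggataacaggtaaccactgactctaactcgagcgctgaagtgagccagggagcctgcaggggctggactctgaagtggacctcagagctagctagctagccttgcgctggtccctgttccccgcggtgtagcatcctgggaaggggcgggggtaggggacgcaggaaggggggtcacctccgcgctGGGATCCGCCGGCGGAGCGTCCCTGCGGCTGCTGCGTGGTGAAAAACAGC
Ankrd45: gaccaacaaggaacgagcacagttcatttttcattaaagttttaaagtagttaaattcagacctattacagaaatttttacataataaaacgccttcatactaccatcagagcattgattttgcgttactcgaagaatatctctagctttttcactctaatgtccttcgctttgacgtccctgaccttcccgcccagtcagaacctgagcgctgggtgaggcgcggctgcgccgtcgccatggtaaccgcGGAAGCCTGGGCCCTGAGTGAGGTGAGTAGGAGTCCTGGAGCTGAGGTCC
The Tsc22d3 site lay 2253 bp upstream of the first start, and the Ankrd45 site 8624 bp downstream of the second. No promoter window of Smarca2, Trim66, Ankrd45 or Tsc22d3, 7 windows in all, was touched by a peak of the 8 lists. The share of all windows touched by a peak was not counted, so no trait of these genes is read from this. RefSeq windows matched 4 of the 5 genes, and Itga6 had none. Neither TGATGNAA, the core of the composite element that ATF4 forms with C/EBP factors, nor TGACGTCA, the cyclic AMP response element, occurred on either strand of the 7 windows. Over all 32851 promoter windows the shares were 3.97% and 1.79%. At such low shares, absence from 7 windows is the usual outcome, and the 2 Ankrd45 windows largely overlap. No lack of either motif is therefore read from these genes. Among the 58 windows that overlap a region of the 2-DG pattern at any position, 20 (34.5%) held TGATGNAA and 1 (1.72%) held TGACGTCA. The 7 windows, touched by no peak, are not among those 58. The sequences under the 5 sites themselves were not analysed here.

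Itga6, an integrin gene, had its site outside the gene. Itga6 lies at chromosome 2, 71786886 to 71858427, and the site at 71742261 to 71743146 (mm10), with its summit 44103 bp below the lower-coordinate end. The site lay inside the long noncoding RNA gene Gm17250, 7722 bp downstream of the start of that gene, which is on the minus strand. Apart from Itga6, the nearest coding genes were Pdk1, the gene of a pyruvate dehydrogenase kinase, 130.4 kb away, and Dlx2, a homeobox gene of forebrain interneurons, 196 kb away. The peak fold at the Itga6 site was 86.6, 66.2, 21.5 and 38.8 in 2-DG lists 1 to 4, and no control list had a peak there. Those folds ranked 20 of 15240, 25 of 7369, 95 of 6371 and 42 of 5856 peaks in their lists. Itga6 had the highest fold of the 5 sites in each of the 4 2-DG lists.

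Fold is the authors' value for a peak, read here only within its own list. In each list every fold was a whole multiple of 1 step, within 0.02 of a step, for all peaks of all 8 lists. The step was 0.309, 0.356, 0.489 and 0.332 in 2-DG lists 1 to 4, and ran from 0.354 to 0.468 in the control lists. Folds in a list thus differed only by whole steps, and the background setting of the caller is not stated. In 2-DG list 3, which had the coarsest step, the 5 sites stood between 36 and 44 steps, so that the order of the sites there rests on few steps. In 2-DG list 1 the sites stood between 161 and 280 steps.

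**Figure D1:**
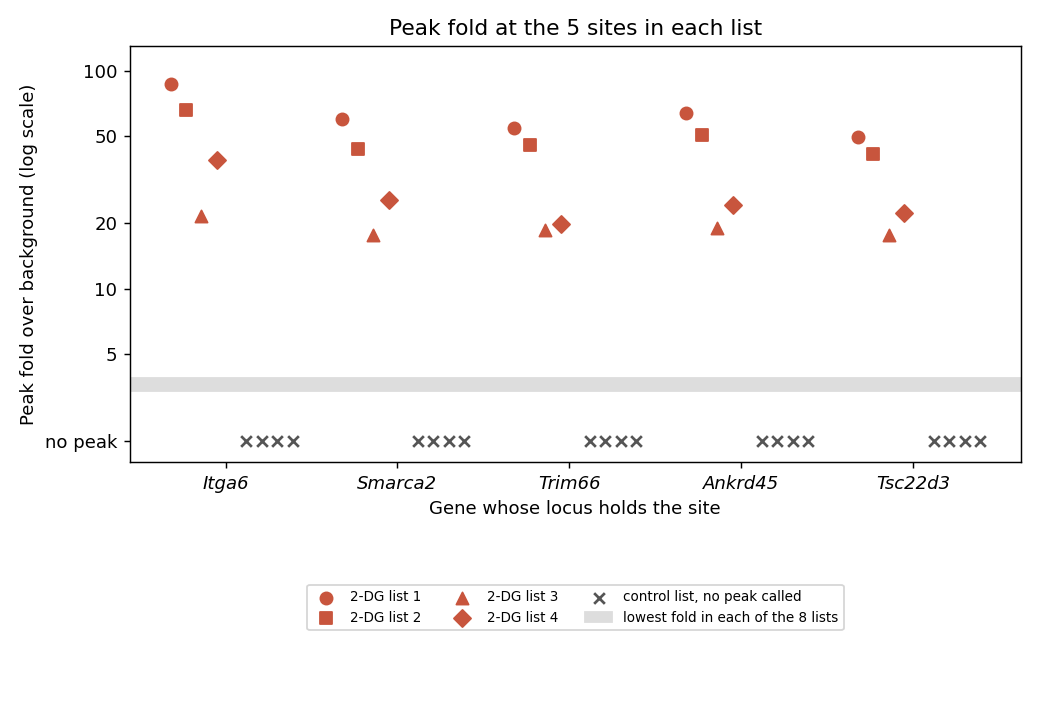
Peak fold over background (log scale) at each of the 5 sites, with 1 symbol for each 2-DG list and crosses for the 4 control lists, in which no peak was called. The grey band spans the lowest folds that the 8 lists contain, 3.40 to 3.91. 2-DG folds run from 17.6 to 86.6, and at each site list 1 is highest and list 3 lowest, though each list has its own step.

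Ankrd45 had its site inside the gene. The gene lies at chromosome 1, 161142447 to 161170510, and the site at 161151048 to 161151771, with the summit 8874 bp above the lower end, at 31.6% of the gene length. The short gene Tex50 lies within the span of Ankrd45, and its nearest end was 5522 bp from the summit. Klhl20, a gene for a ubiquitin ligase adaptor, was 19.8 kb away. Fold at the Ankrd45 site was 64.3, 50.9, 19.1 and 24.2 in 2-DG lists 1 to 4, ranks 41, 49, 118 and 108, and no control list had a peak there. It was the second highest of the 5 sites in 2-DG lists 1, 2 and 3 and the third in list 4.

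Smarca2, the BRM gene, held its site deep inside the gene. The gene lies at chromosome 19, 26605073 to 26778321, and the site at 26675543 to 26676066, 70789 bp above the lower end and 102459 bp below the upper end. Measured from the annotated start on the plus strand, the summit lay 70702 bp downstream. No other coding gene came near, since Gm815 and Vldlr, the next 2, lay 210.1 kb and 540.6 kb away. Vldlr encodes a lipoprotein receptor and is itself a known ATF4 target. Fold at the Smarca2 site was 60.3, 43.7, 17.6 and 25.5 in 2-DG lists 1 to 4, ranks 52, 62, 133 and 93, with no peak in a control list.

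Trim66 also held its site inside the gene. The gene lies at chromosome 7, 109449001 to 109516759, on the minus strand, and the site at 109493408 to 109494267. Its summit was 23006 bp below the upper end. It was 14381 bp downstream of the start at 109508134, which lies inside the gene and is the only one with a promoter window. Rpl27a, a ribosomal protein gene, and Denn2b lay 25.4 kb and 30.2 kb away. Fold at the Trim66 site was 54.7, 45.5, 18.6 and 19.9 in 2-DG lists 1 to 4, ranks 64, 57, 122 and 144, with no peak in a control list. Its place among the 5 sites moved between the third in lists 2 and 3 and the last in list 4.

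Tsc22d3, the GILZ gene, had the site closest to a start of its own. The gene lies on chromosome X, 140539528 to 140600522, on the minus strand, and the site at 140544650 to 140545444. Its summit was 5393 bp above the lower end, 2253 bp upstream of the start at 140542668 and 3650 bp downstream of the start at 140548571, and 55601 bp from the start at the upper end. The site therefore met the rule on gene ends and lay upstream of an internal start. Prps1, a gene of nucleotide synthesis, was the nearest other coding gene at 68.8 kb. Fold at the Tsc22d3 site was 49.8, 41.6, 17.6 and 22.2 in 2-DG lists 1 to 4, ranks 74, 70, 133 and 124, with no peak in a control list. It tied with Smarca2 in list 3 and was the lowest of the 5 sites in lists 1 and 2.

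**Figure D2:**
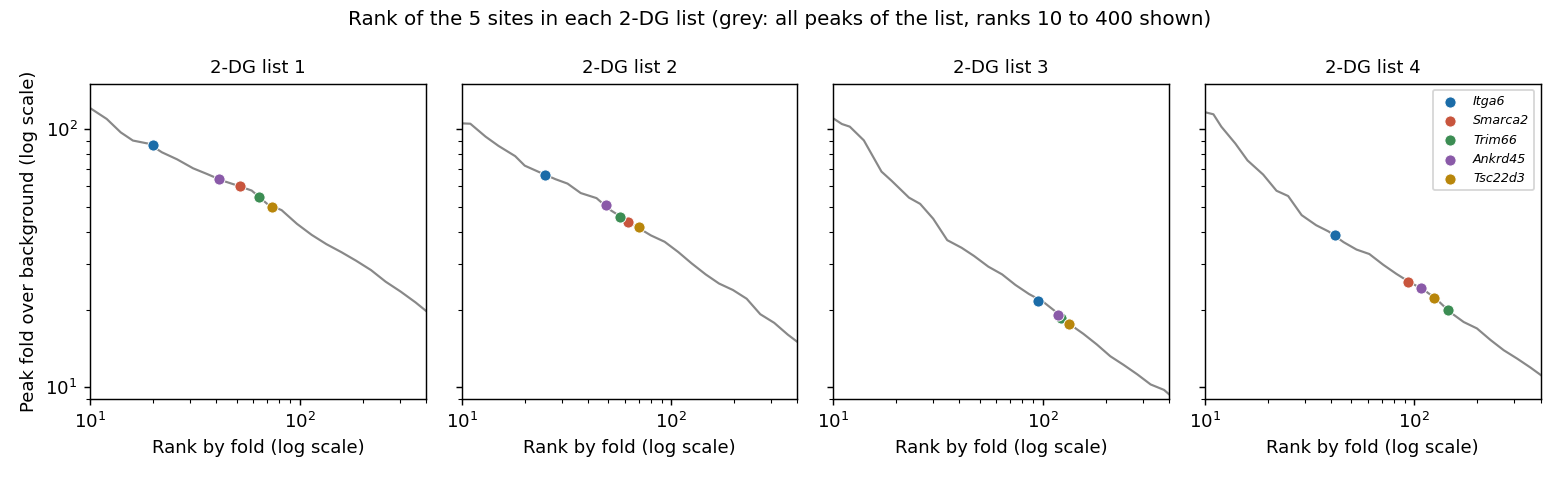
Peak fold against rank by fold, both on log scales, in each 2-DG list, with the 5 sites as coloured dots on the grey curve of all peaks. The sites fall at ranks 20 to 74 in list 1, 25 to 70 in list 2, 95 to 133 in list 3 and 42 to 144 in list 4, and Smarca2 and Tsc22d3 coincide in list 3.

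Within a list the sites were several times the typical peak. Fold at the 5 sites was 11.5 to 20 times the list median in 2-DG list 1, 9.00 to 14.3 times in list 2, 3.6 to 4.4 times in list 3 and 4.29 to 8.36 times in list 4. The other 507 regions of the 2-DG pattern had a median fold of 17.3, 12.8, 5.87 and 7.30 in lists 1 to 4. Of 18 classic ATF4 targets, 9 had a gene-end site of the 2-DG pattern. Over the genome, 104 regions of the pattern lay within 2 kb of an end of any protein-coding gene. The share of all genes with such a region was not counted, so no excess is read from 9 of 18. Of the 9 targets, 3 had a mean percentile at least as high as the lowest of the 5 sites. The site of Ddit4, an inhibitor of mTORC1 signalling, ranked 33, 33, 89 and 102, that of Trib3, a pseudokinase gene, 56, 87, 95 and 100, and that of Pck2, a mitochondrial gluconeogenic enzyme gene, 65, 93, 85 and 93. The other 6 were lower by mean percentile. Among them, Vldlr ranked 86, 87, 126 and 124, and Aldh1l2, a mitochondrial folate enzyme gene, 145, 131, 385 and 218. Sesn2, a sestrin gene, ranked 355 to 509, Atf3 300 to 651, Phgdh, a serine synthesis gene, 544 to 1806, and Cebpb 509 to 3762. The rule picked the 5 sites for high fold, so their place above most of these targets follows in part from that choice.

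Summits agreed closely between lists, a position that the rule did not use. Over the 4 2-DG lists the highest summit moved by 6 bp at Smarca2, 12 bp at Trim66, 17 bp at Ankrd45, 20 bp at Tsc22d3 and 33 bp at Itga6. At Smarca2 it lay between 26675861 and 26675867. Among the other 507 regions the median spread was 44 bp, with quartiles of 25 and 77 bp. Strong regions had tighter summits in general, since the 50 other regions with the highest percentiles had a median of 22.5 bp. Against that strength, 4 sites had a narrower spread than the median and Itga6 a wider one.

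**Figure D3:**
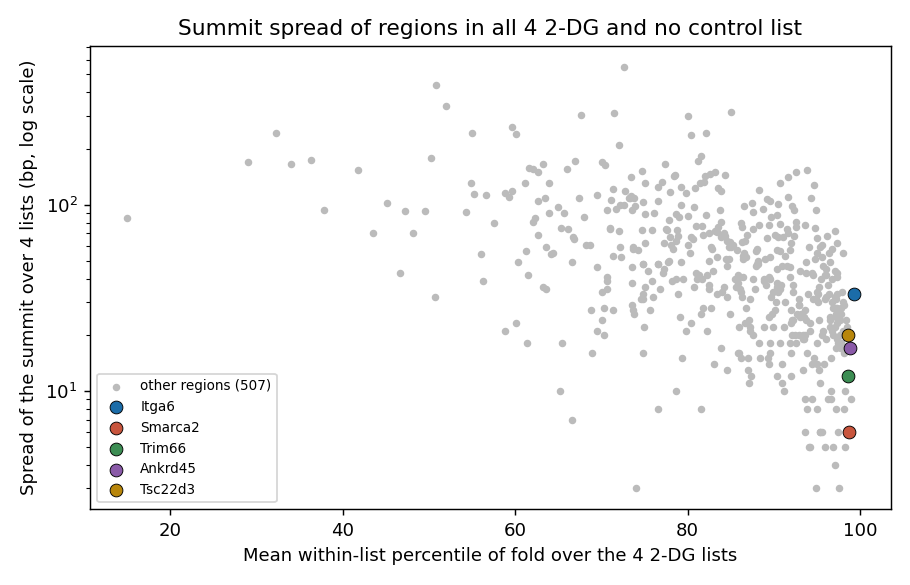
Spread of the highest summit over the 4 2-DG lists (bp, log scale) against mean within-list percentile of fold, for the 512 regions of the 2-DG pattern. The 5 sites lie at the right edge, with spreads from 6 to 33 bp, where the other strong regions also have tight summits.

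Called intervals were wide, and their longer side was mostly the same over the lists of a site, by little in some of list 4. Widths at the 5 sites ran from 524 to 858 bp in 2-DG list 1, 466 to 874 bp in list 2, 387 to 680 bp in list 3 and 362 to 528 bp in list 4. The other regions of the pattern had median widths of 433, 395, 197 and 248 bp in these lists. Strong regions were wider in general, since the 50 others with the highest percentiles had medians of 637.5, 613, 352.5 and 389.5 bp, within the range of the 5 sites in lists 1, 2 and 4 and below it in list 3. Smarca2 had the narrowest interval in lists 1, 2 and 3, and Tsc22d3 in list 4. The interval reached further from the summit towards lower coordinates in 4 of 4 2-DG lists at Itga6 and Smarca2. It reached further towards higher coordinates in 4 of 4 lists at Trim66 and Tsc22d3 and in 3 of 4 at Ankrd45. In list 4 the sides were nearly even at Smarca2, 193 bp towards lower and 181 bp towards higher coordinates. They were also nearly even at Tsc22d3 in list 4, 176 and 185 bp. The longer side there depends on a summit at -19 bp from the site summit. The longer side was not counted for the other regions of the pattern, so no trait of these sites is read from it. At Itga6, 2-DG lists 2 and 4 gave the interval 2 summits, and every other interval at the 5 sites had 1.

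**Figure D4:**
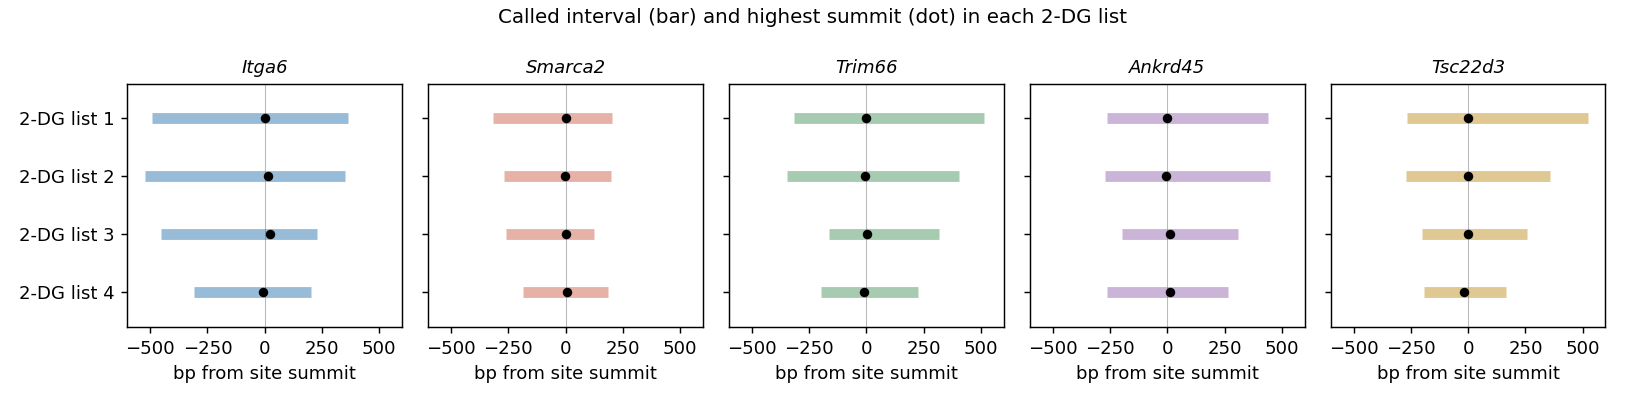
Called interval (bar) and highest summit (dot) in each 2-DG list, in bp from the site summit, towards higher coordinates on the right. Bars are longer in lists 1 and 2 than in lists 3 and 4 at all 5 sites, while the dots stay within 25 bp of the site summit.

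Other peaks in the 5 loci were few and weak. Apart from the sites, 2-DG lists 1 to 4 held 2, 0, 3 and 1 peaks over the 5 loci together, and control lists 1 to 4 held 1, 1, 1 and 2. These other peaks had folds of 3.91 to 6.19 in the 2-DG lists and 3.89 to 7.48 in the control lists. Those in a 2-DG list were below every value at the sites in the same list. They were also narrow, at 109 to 224 bp in the 2-DG lists and 104 to 150 bp in the control lists. Peaks of both treatments overlapped in 3 loci, and their folds are not compared between lists. At Smarca2 a peak 119.3 kb below the site had a fold of 4.31 in 2-DG list 4, and 7.48 and 3.89 in control lists 3 and 4. At Trim66 the overlap was at the edges only. The peak of 2-DG list 3 lay 37.3 kb below the site (3.91). That of control list 2 lay 37.5 kb below it (4.03). At Ankrd45 a peak 72.3 kb above the site had 5.88 in 2-DG list 1, and 4.00 in control list 1.

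The Itga6 locus had no control peak at all, and its other peaks came from single 2-DG lists. They lay 11.4 kb below the site in list 1 (fold 6.19), within Itga6 in list 3 (5.38) and within Pdk1 in list 3 (3.91). The Tsc22d3 locus had 1 peak apart from the site, in control list 4, 28.6 kb above the site and inside the gene (4.24). Measured from the site summit to the nearest edge, the closest peak of any control list was 28520 bp away at Tsc22d3, 37353 bp at Trim66, 72275 bp at Ankrd45, 103012 bp at Itga6 and 119217 bp at Smarca2. The median for the other 507 regions was 58886 bp. No gene end of the 5 genes had a peak within 2 kb in any of the 8 lists. Over the genome, 33228 of the 35717 regions lay over 2 kb from every protein-coding gene end. The share of all genes without such a peak was not counted, so no trait of the 5 genes is read from this.

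**Figure D5:**
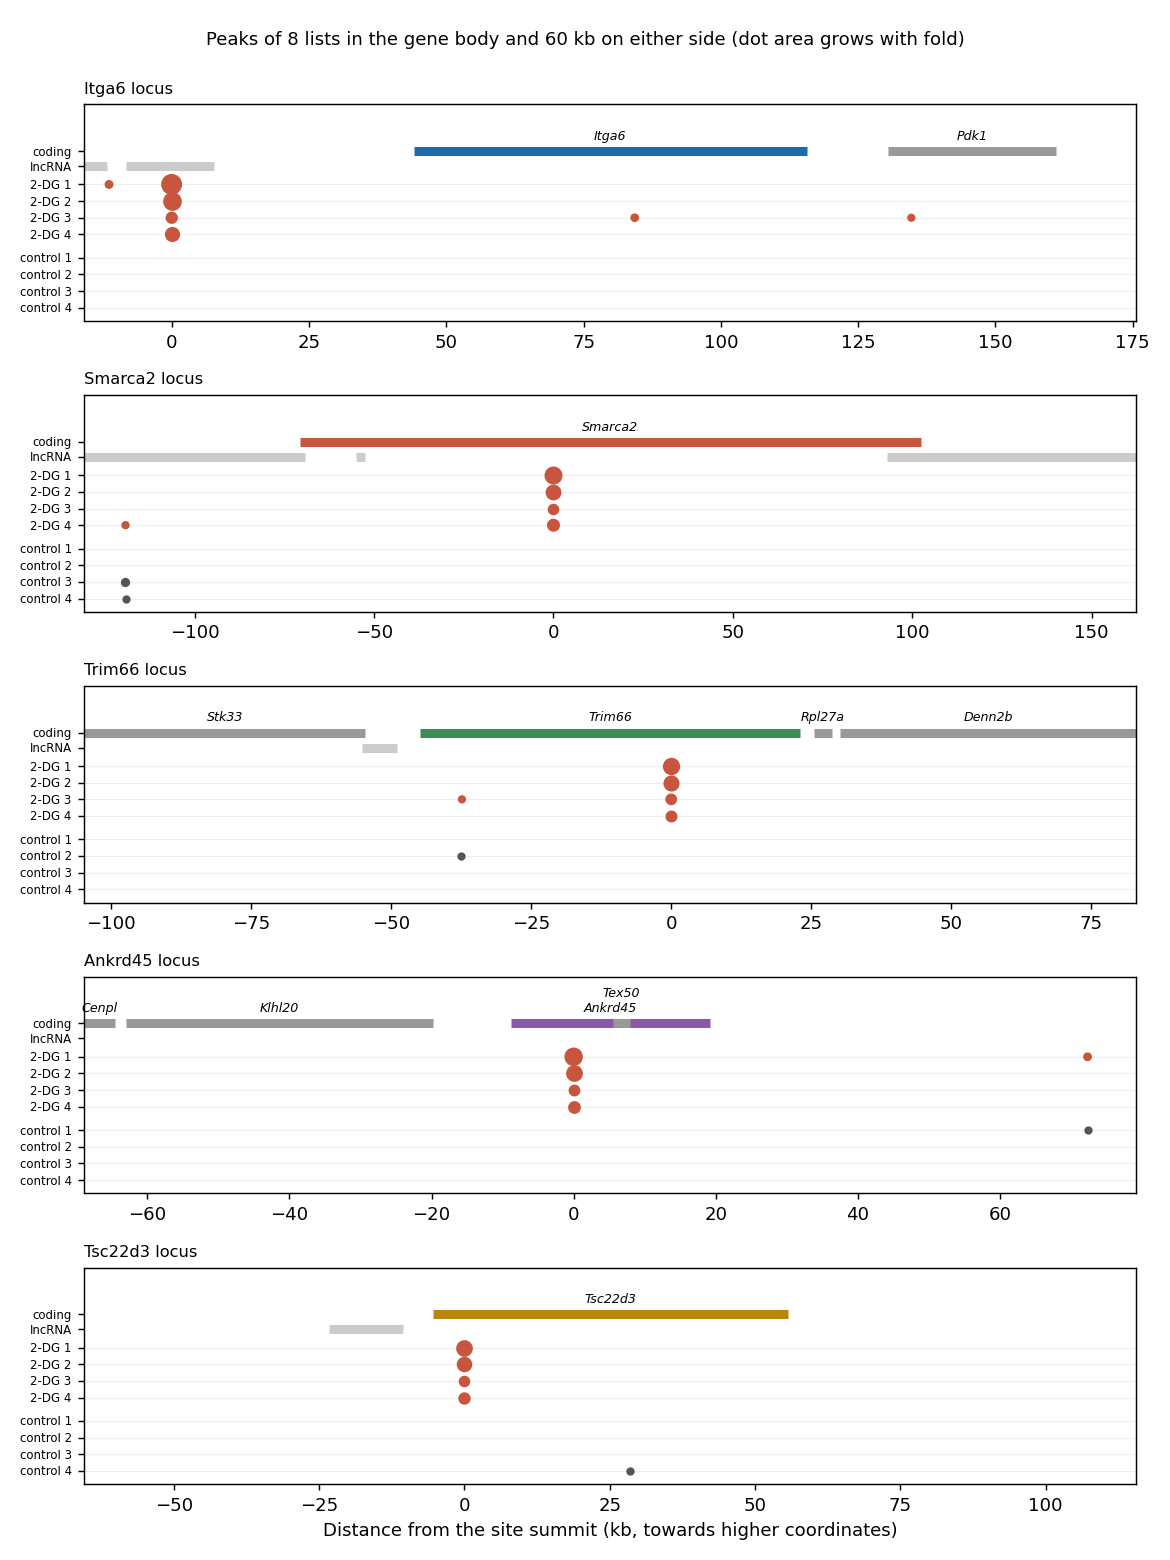
Peaks of the 4 2-DG lists (red) and the 4 control lists (grey) in each locus, against distance from the site summit in kb, with coding and long noncoding RNA genes as bars above and dot area growing with fold. Each site appears as a column of 4 red dots at 0 with no grey dot, and the remaining dots are small and scattered.

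Of the 5 sites, 4 lay inside a protein-coding gene, against 276 of all 512 regions (53.9%). The rule took only sites in a gene or up to 60 kb from it. The 512 had no such limit, so the shares are not compared. No site lay within 2 kb of a start that has a promoter window, against 33 of the 512 regions. The windows leave out some starts, with none for Itga6. Regions on chromosome 18, 18 of the 512, had no start to measure from, so 33 is a lowest count. The files and tables used here give no exons, so whether the 4 sites inside genes are intronic was not analysed here.

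Regions most like each site by percentile of fold over the 4 2-DG lists were mostly the other sites. Smarca2 and Ankrd45 were each other's nearest, 0.402 percentile points apart, and so were Trim66 and Tsc22d3, 0.440 points apart. The region most like Itga6 (0.882 points) lay 195684 bp from the nearest gene end, that of Gask1b. Its folds were 50.4, 54.1, 21.0 and 26.2 in 2-DG lists 1 to 4. The second most like Trim66 was the region 5614 bp from an end of Tlr4 (0.544 points). The second most like Tsc22d3 was that 559778 bp from an end of Prelid2 (0.450 points). All these regions were strong in the same lists by choice, and the percentiles share list length and depth.

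Genes related to the 5, and classic ATF4 targets, were searched for a region of the same pattern in the gene or 60 kb on either side. Of the other 19 integrin subunit genes 0 had one, and of 11 laminin chain genes, which encode ligands of the alpha 6 integrins, 0. Of the other 25 SWI/SNF subunit genes 1 did, Dpf3, with a region inside the gene 115.4 kb from its nearest end that ranked 243, 391, 1806 and 328 in 2-DG lists 1 to 4. Of the other 3 TIF1 genes and the other 3 TSC22 domain genes, 0 had one. Of the other 12 glucocorticoid-induced genes 1 did, Klf9, which encodes a zinc finger transcription factor, with a region 6135 bp outside the gene that ranked 1184, 1190, 1806 and 1425. Of 18 classic ATF4 targets 3 did, Sesn2, Trib3 and Vldlr, with regions 3639, 6027 and 6563 bp outside the gene. These counts stand beside the background of 3.17% of genes, and with so few members nothing particular to a list can be read from them.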

How the data were processed

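Peak lists of 8 immunoprecipitations (4 2-DG, 4 control) were used, and the 2 lists whose title and description name different treatments entered no group. Alignment and peak calling used mm10, and BWA, Picard, MACS2 and DiffBind are named without versions, per the submitters' processing notes. Each deposited list gives, per summit, a position, a fold (ratio over background) and a -log10 q value. The lists hold no read counts, so depth is unknown, and the absence of a peak shows no more than that the caller reported none. List numbers follow accession order and pair nothing. Nothing in the labels ties lists to separate cultures, and the design names 3 independent replicates.

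Intervals repeated for several summits were counted once, at the highest summit. The 8 lists were joined into 35717 regions by overlap of at least 1 bp, placed at the summit of the peak with the highest within-list percentile of fold. Gene positions and promoter windows came from RefSeq tables of GRCm38.p6. The site of a gene is the region in its locus, over 2 kb from both its ends, that is in most 2-DG lists, ties going to the highest mean percentile. For each site the 2 nearest other coding genes and the 2 regions most alike were named. All genes of the 7 related gene lists matched the table. The members and lists were chosen with earlier results of these data known. No test of 2-DG against control was run, because the rule used the calls compared. Single values far from the rest of their group of 4 lists were flagged by the Dixon ratio, at a critical value of 0.829. Alternatives were limits on q and fold, equal list lengths, leaving out each list, adding the conflicting lists, stricter overlap, other distances and margins, ranking by q, counting summits and placing regions by their middle. The code was tested on simulated lists. Python 3.11.15, pandas 2.3.3, numpy 2.4.6 and matplotlib 3.10.9 were used.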

Additional observations from a re-analysis of the deposited data

Results flagged for a closer look

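Single values far from the other 3 of their group of 4 lists were looked for in 35 groups, and 8 had one. Chance would give about 1 in 20, or 1.75, but 6 of the 8 come from counts where 3 lists had 0 and 1 list had 1, which always stand out, and no excess can be read. These 6 are the lone other peak in 1 2-DG list at Smarca2, Trim66 and Ankrd45 (1 each), and in 1 control list at Trim66, Ankrd45 and Tsc22d3 (1 each). The other two are summit positions in 2-DG list 4. At Smarca2 it lay 5 bp above the site summit, when the other lists lay within 1 bp of it. At Tsc22d3 the value was -19 bp, when the others lay within 1 bp.

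The list with title number 18, titled 2-DG but described as control, had a peak at all 5 sites, where the 4 control lists had none. Its folds were 24.3 at Itga6, 20.5 at Ankrd45, 15.3 at Smarca2, 15.3 at Trim66 and 12.2 at Tsc22d3, and in the same order its ranks were 78, 110, 173, 173 and 267 of 7847 peaks. Its summits lay at 4 bp (Itga6), -8 bp (Ankrd45), -35 bp (Smarca2), 16 bp (Trim66) and 12 bp (Tsc22d3) from the site summits. The list with title number 17, titled control but described as 2-DG, had no peak at any of the 5 sites. Neither list was used to choose the genes' sites. No source used here says which of their labels is right.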

How the results depend on the processing

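All 5 sites stayed in every 2-DG list and out of every control list when limits were set on -log10 q (2 or 5) or fold (5), or list lengths were made equal. The same held with any list left out, the conflicting lists added by title, stricter overlap and distances of 1 or 5 kb. Most of these outcomes were fixed beforehand, so they are no test of the choice. The lowest fold at the sites was 17.6 and the lowest -log10 q 36.8, far above the limits. Removing peaks or lists cannot create a control peak, and every site lay at least 5393 bp from a gene end. Adding the conflicting lists by title could have changed the count. With the conflicting lists added by description the count of sites was 0, as were the counts of regions (0) and genes (0) with the pattern, since the list then added to the controls had a peak at 437 of the 512 regions (85.4%) and the one then added to the 2-DG lists at 3 (0.586%). The 512 regions became 257 and the 694 genes 390 at -log10 q of at least 5. With each list left out in turn, regions ran from 518 to 1059 and genes from 699 to 1318, both highest without 2-DG list 3. At -log10 q of at least 5 the mean percentile of fold at the sites was 95.1 to 97.4, against 98.6 to 99.3 as deposited, because weaker peaks leave the list. Ranking by -log10 q gave the same percentiles. With a margin of 100 kb, other peaks at Itga6 averaged 2.25 more in a 2-DG list than in a control list. No paired analysis was possible because the result comes from no test and list numbers do not pair samples. Without read counts, a control peak under the calling threshold cannot be seen at any site.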
